A study of Mus musculus with 7 samples.

Results

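Mouse genes for the ephrins, their Eph receptors, the Slits and Robos, and the netrins, netrin-Gs and netrin receptors were examined by symbol. A rule on the symbols alone, which used no measured value, found 41 genes among the 24346 in the expression table. They were 8 ephrins, 14 Eph receptors, 3 Slits, 4 Robos, 4 netrins, 2 netrin-Gs and 6 netrin receptors.

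These families are best known for steering axons, blood vessels and migrating neurons. Ephrins are held on the cell surface, by a lipid anchor in the A class and by a transmembrane segment in the B class, and they bind Eph receptor tyrosine kinases on a neighbouring cell, so that both cells can signal. Slits are secreted repellents that act through Robo receptors. Secreted netrins attract through Dcc and neogenin (Neo1) and repel through Unc5 receptors, whereas the netrin-Gs stay on the membrane and bind partners of their own. In the adult brain, members of all 3 systems act on neural stem cells or on the neuroblasts that arise from them.

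Med23 is a subunit of Mediator, the complex that links transcription factors to RNA polymerase II, and the study examined its role in adult hippocampal neural stem cells. RNA was sequenced from primary neurospheres, the floating clusters that dividing neural stem and progenitor cells form in culture, grown from the hippocampus of single C57/BL6 mice. Control libraries came from 4 mice labelled wild type (WT_215, WT_116, WT_213 and WT_220) and knockout libraries, called Med23 CKO, from 3 mice (KO_117, KO_214, KO_218), all aged 2 months by the labels. In Med23 CKO mice, floxed Med23 is deleted by Nestin-CreER, a tamoxifen-activated Cre under the Nestin promoter, which marks neural stem cells but is also used by cells of the vessel wall. Controls were littermates with floxed alleles and no Cre, and tamoxifen was given to both groups by mouth on 5 days at 200 mg/kg. The labels place the treatment at 2 months with 3 to 4 weeks of recovery for most experiments. For the hippocampal cultures, which were prepared from mice aged 2 months, the study's methods give an earlier age at treatment. By the methods, deletion in these libraries was therefore begun before 2 months of age.

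The targeted gene, given first, separated the groups by a narrow margin. Med23 was at 11.4, 10.3, 12.9 and 10.1 FPKM in the control libraries and at 9.97, 9.27 and 8.12 FPKM in the Med23 CKO libraries, in the order of mice given above. All 3 Med23 CKO values lay below the lowest control value, WT_220 at 10.1 and KO_117 at 9.97 FPKM, and the mean difference was -0.26 ± 0.18 (SE) on the log2(FPKM + 1) scale (exact permutation p = 0.0571). FPKM is the number of sequenced fragments scaled to transcript length and to the library's mapped total, so levels can be set side by side between genes. For Med23, FPKM covers the whole gene while only some of its exons are floxed, so it need not measure the extent of deletion. The study reports the deletion from qRT-PCR of primary neurospheres and from a western blot of hippocampal tissue. Markers of neural stem cells and astroglia were high as a sum in every library, at 2100 to 4083 FPKM over 8 genes. Single markers of this list moved in opposite directions. Gfap ran from 17.8 FPKM in WT_220 to 321 FPKM in KO_214, while Fabp7 (203 FPKM) and Nes (61.1 FPKM) were lowest in KO_214. Libraries also differed in other cells' markers. KO_214 had the highest sums for microglia and macrophages (180 FPKM, controls 7.77 to 43.0), endothelial cells (105 FPKM, controls 7.68 to 61.1) and mural cells and fibroblasts (349 FPKM, controls 8.82 to 83.5), and the lowest for dividing cells (214.6 FPKM, controls 316 to 752). Not all microglial markers shared this, since Cx3cr1 was at 0.157 FPKM in KO_214 and 0.782 FPKM in WT_213. P2ry12 was at 1.24 FPKM in KO_214 and 1.60 FPKM in WT_116, while the other markers of that list were highest in KO_214. None of the markers in these lists was at 0 in a library. The neurospheres are bulk samples, in which fewer cells of a type and less RNA per cell cannot be told apart.

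Each of the 7 families was expressed, at levels that differed widely between its members. The highest members by mean FPKM over the 7 libraries were Efnb3 (22.7) among ephrins, Epha5 (8.66) among Eph receptors, Slit1 (3.34) among Slits, Robo1 (4.72) among Robos, Ntn1 (17.2) among netrins, Ntng2 (3.67) among netrin-Gs and Neo1 (19.7) among netrin receptors. Unc5b (17.99) and Ntn4 (17.0) stood beside these highest genes. A mean of at least 0.5 FPKM was required for a test, and 32 of the 41 genes passed it. The 9 below it were Epha1, Epha3, Epha6, Epha8, Epha10, Slit3, Robo3, Ntn5 and Unc5d, with means of 0.0441 (Epha6) to 0.362 FPKM (Epha3). The levels of the 41 genes by library are shown in the plot by family.

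**Figure D1:**
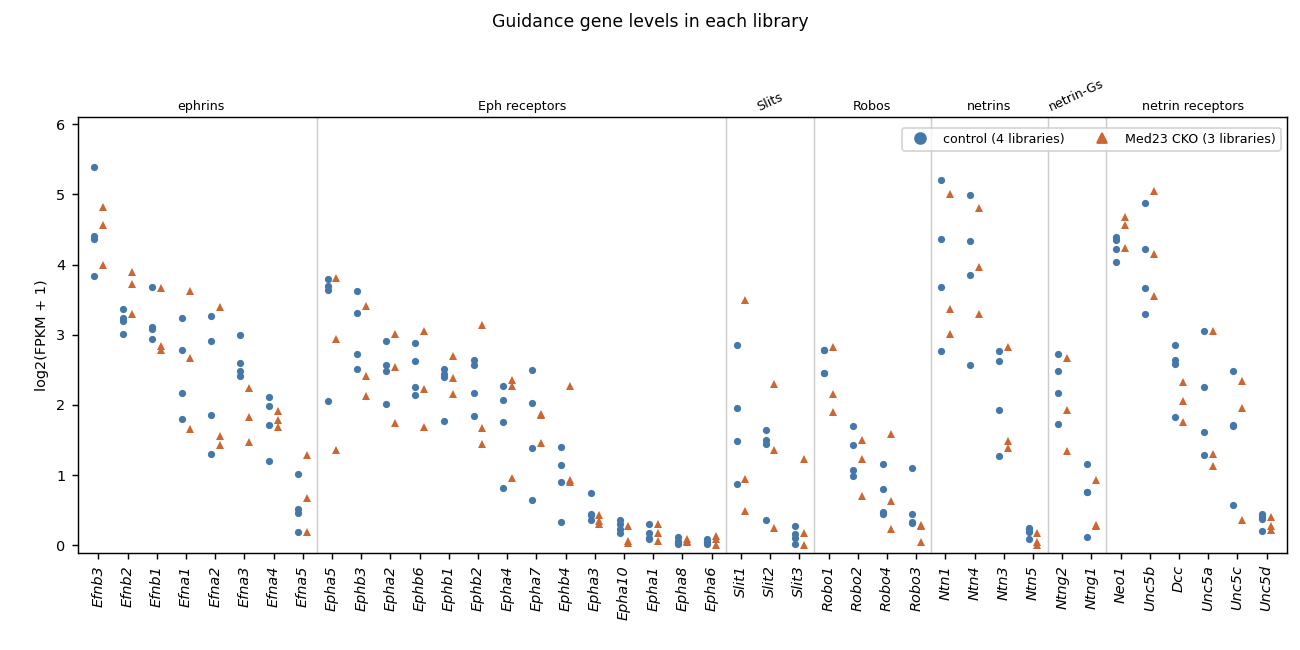
Each point is 1 library, the vertical axis is log2(FPKM + 1), and genes are grouped by family and ordered by mean level. Efnb3, Ntn1, Ntn4, Neo1 and Unc5b were the highest genes, and for nearly every gene the points of the 4 control libraries (circles) and the 3 Med23 CKO libraries (triangles) overlap.

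The promoters shown next are those of the gene with the clearest difference between groups (Efna3), its closest neighbour among the ephrins (Efna4), and a gene from each side of the variation between libraries described further on (Efna2 and Unc5b). Sequences are from RefSeq on GRCm38.p6, 5′ to 3′ on the gene's strand, and end at the base before the gene. Capitals mark the GC box (GGGCGG), the sequence bound by Sp1-family factors, and the core of ETS-family sites (CCGGAA), on either strand.
Efna3, chr3:89322966-89323189, minus strand: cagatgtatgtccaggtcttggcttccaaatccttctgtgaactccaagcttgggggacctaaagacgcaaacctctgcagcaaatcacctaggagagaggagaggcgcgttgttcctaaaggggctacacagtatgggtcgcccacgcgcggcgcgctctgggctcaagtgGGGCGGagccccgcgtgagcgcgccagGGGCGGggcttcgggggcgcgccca
Efna4, chr3:89338029-89338278, minus strand: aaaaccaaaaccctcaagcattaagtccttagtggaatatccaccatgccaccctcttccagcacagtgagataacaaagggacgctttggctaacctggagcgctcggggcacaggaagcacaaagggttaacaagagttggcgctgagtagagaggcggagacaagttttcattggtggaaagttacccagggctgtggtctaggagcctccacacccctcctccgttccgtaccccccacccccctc
Efna2, chr10:80179232-80179481, plus strand: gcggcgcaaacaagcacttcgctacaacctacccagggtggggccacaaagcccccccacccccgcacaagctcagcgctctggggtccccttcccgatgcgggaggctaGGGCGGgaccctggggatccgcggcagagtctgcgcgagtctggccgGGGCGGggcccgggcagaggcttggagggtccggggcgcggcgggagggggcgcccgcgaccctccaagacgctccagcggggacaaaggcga
Unc5b, chr10:60831582-60831831, minus strand: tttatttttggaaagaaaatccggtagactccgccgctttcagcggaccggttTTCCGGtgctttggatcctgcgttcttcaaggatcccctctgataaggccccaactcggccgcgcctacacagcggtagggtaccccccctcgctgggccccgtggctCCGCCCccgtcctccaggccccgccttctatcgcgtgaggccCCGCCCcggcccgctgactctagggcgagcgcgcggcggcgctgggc
The Efna3 sequence is shorter, at 224 bases, since the last bases of its 250-base window lie within the annotated gene. The Efna3, Efna2 and Unc5b sequences shown each held 2 GC boxes, and the whole Efna3 window 3, while Unc5b also held 1 ETS core and Efna4 held neither. RefSeq starts were matched for 36 of the 41 genes, at 41 starts. A GC box was found in the 250 bases before 28 of these starts (68.3%), against 32.7% of 32851 starts of all genes, and an ETS core before 3 (7.32%), against 12.03%. The 2 motifs did not overlap at any of the starts of the guidance genes. Median GC content of the windows was 64.8% for the guidance genes and 52.4% for all starts. These matches describe letters in the window and not binding.

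Med23 CKO and control neurospheres differed little in the guidance genes as a group. Differences were tested with limma, a linear model with moderated variances, on log2(FPKM + 1) over all 14151 genes with a mean of at least 0.5 FPKM. Of the 32 guidance genes that entered the test, Med23 CKO was above control in 13 and below it in 19, with a median difference of -0.08 on the log2 scale beside -0.03 over all genes tested. No guidance gene and no gene of the table passed an adjusted p of 0.05 in limma with Benjamini-Hochberg adjustment. At an unadjusted p under 0.05, 1 guidance gene was lower (Efna3) and 0 were higher, which is 3.13% of the 32. Over all genes tested, 1.5% passed that threshold, 0.996% lower and 0.502% higher, so the guidance genes stood near the background. All 3 Med23 CKO libraries lay below all 4 controls for 1 of the 32, against 1.53% of all genes tested, and above them for 0, against 0.784%.

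The limits on these differences were wide for many members. For 13 of the 32 genes the 95% interval of the difference lay within 1 of 0 on the log2(FPKM + 1) scale, and for 19 it reached 1 or more from 0. On this scale a step of 1 is more than a doubling, most of all for low genes, so some of the 13 intervals also include a doubling or a halving of FPKM. The median standard error was 0.389 for the guidance genes and 0.281 for all genes tested. The highest library was a median of 4.44 times the lowest over the 32 genes. The interval plot gives each gene's difference in order.

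**Figure D2:**
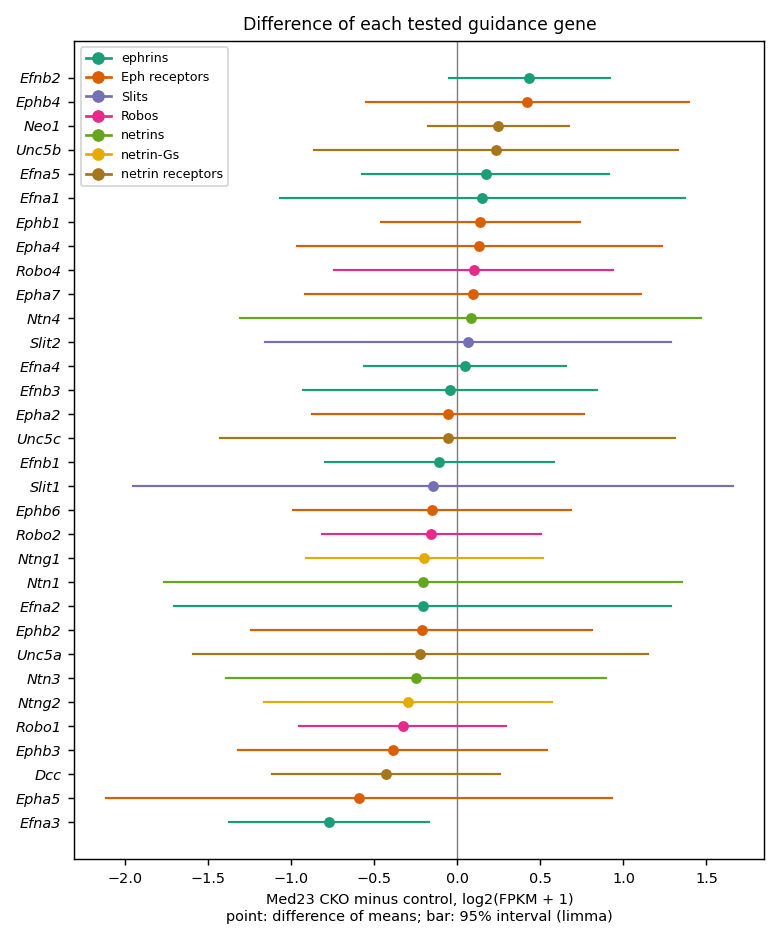
Points are the mean difference in log2(FPKM + 1), Med23 CKO minus control, for the 32 genes tested, bars are 95% intervals from limma, and colours mark the families. The interval of Efna3 (-1.38 to -0.17) is the only one that does not cross 0, and Slit1 has the widest (-1.96 to 1.66).

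The ephrins held the clearest difference. Efna3 encodes ephrin-A3, a lipid-anchored ligand of EphA receptors that astrocytes carry in the hippocampus. Its level was 4.31, 4.62, 5.04 and 6.96 FPKM in the control libraries and 3.75, 1.76 and 2.56 FPKM in the Med23 CKO libraries. All 3 Med23 CKO values lay below the lowest control value, with KO_117 nearest to the controls and KO_214 farthest. The means were 5.23 ± 1.19 and 2.69 ± 1.002 FPKM (SD, n = 4 and 3), a difference of -0.77 ± 0.26 (SE) on the log2(FPKM + 1) scale. The unadjusted limma p was 0.0189 and the adjusted p was 1. The exact two-sided permutation p was 0.0286, the smallest that the 35 assignments of the libraries to the groups allow. Without KO_214, the library with the most microglial, vascular and fibroblast marker RNA, the difference was -0.58 with an unadjusted limma p of 0.0628.

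Efna3 lies on the minus strand of chromosome 3 of GRCm38, from 89313899 to 89322965, between Efna1 (89271733 to 89281142) and Efna4 (89333390 to 89338028) on the same strand. Gaps of 32.8 and 10.4 kb separate it from these neighbours, which encode lipid-anchored ligands of the same class. Efna1 was at 3.51, 8.46, 5.88 and 2.50 FPKM in the control libraries and at 2.14, 11.4 and 5.37 FPKM in the Med23 CKO libraries, so that Med23 CKO held both the lowest and the highest library. Efna4 was at 1.31, 3.33, 2.95 and 2.28 FPKM in controls and at 2.77, 2.46 and 2.23 FPKM in Med23 CKO, all 3 inside the control range. Their differences were 0.15 ± 0.52 and 0.05 ± 0.26 (SE) on the log2 scale. An annotated gene, Gm15998, overlaps Efna3, and whether the counting used strand was not stated.

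Efnb3, the highest ephrin, encodes ephrin-B3, a transmembrane ligand known as a midline barrier to corticospinal axons. It was at 20.2, 40.8, 19.6 and 13.3 FPKM in the control libraries and at 14.9, 27.2 and 22.6 FPKM in the Med23 CKO libraries. The Med23 CKO values lay inside the control range, and the difference was -0.05 ± 0.38 (SE) on the log2 scale. Efnb2, which encodes the ligand known from arteries as the partner of EphB4, had the largest difference in the other direction and was chosen for description after its values were seen. It was at 8.19, 9.31, 8.41 and 7.10 FPKM in controls and at 12.2, 13.8 and 8.82 FPKM in Med23 CKO. KO_117 and KO_214 lay above all controls, while KO_218 lay below WT_116. The difference was 0.43 ± 0.21 (SE), with an unadjusted limma p of 0.0724 and an exact permutation p of 0.0571. Of the remaining ephrins, Efna5 was at 0.145 to 1.44 FPKM over the 7 libraries, Efna2 at 1.48 to 9.55 FPKM and Efnb1 at 5.87 to 11.8 FPKM, with differences of 0.17, -0.21 and -0.11 on the log2 scale and overlapping groups.

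Among the 14 Eph receptors, 9 were tested, 4 were higher and 5 lower, and 0 had an unadjusted limma p under 0.05. Epha5, the highest, encodes a receptor of ephrin-A ligands known from topographic maps. It was at 12.9, 3.16, 11.9 and 11.4 FPKM in the control libraries and at 13.0, 1.55 and 6.67 FPKM in the Med23 CKO libraries. Both groups held a low library, WT_116 and KO_214, and the difference of -0.60 ± 0.65 (SE) was smaller than its error. Ephb4, the receptor of ephrin-B2 in veins, was at 0.866, 1.64, 1.22 and 0.263 FPKM in controls and at 0.904, 3.84 and 0.869 FPKM in Med23 CKO. Only KO_214 lay outside the control range, and the difference was 0.42 ± 0.42 (SE) on the log2 scale. The differences of the 9 tested receptors ran from -0.60 (Epha5) to 0.42 (Ephb4), with Ephb3 at -0.39, Ephb2 at -0.22, Ephb6, which lacks kinase activity, at -0.15, Epha2 at -0.06, Epha7 at 0.09, Epha4 at 0.13 and Ephb1 at 0.14. The sign for Epha2 turned under quantile normalization, to 0.03.

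The Slits varied widely between libraries, the highest being from 21.4 (Slit2) to 152 (Slit3) times the lowest. Slit1, the highest, was at 2.89, 0.827, 1.79 and 6.24 FPKM in the control libraries and at 10.3, 0.411 and 0.922 FPKM in the Med23 CKO libraries. The Med23 CKO group held both the highest and the lowest value, and the difference was -0.15 ± 0.78 (SE) on the log2 scale. Slit2 was at 1.83, 2.11, 1.71 and 0.286 FPKM in controls and at 0.184, 3.93 and 1.56 FPKM in Med23 CKO, again with both extremes in Med23 CKO. Slit3 was below the test's filter, at 0.0097 to 0.209 FPKM in controls and at 0.0088, 1.34 and 0.129 FPKM in Med23 CKO. Its one high value was in KO_214, and the exact permutation p was 0.371.

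Of the Robos, Robo1 and Robo2 are the main neural Slit receptors, Robo3 acts in commissural neurons and Robo4 in endothelium. Robo1, the highest, was at 4.49, 5.91, 5.88 and 4.50 FPKM in controls and at 2.72, 6.07 and 3.46 FPKM in Med23 CKO. KO_117 and KO_218 lay below all controls and KO_214 above them, and the difference was -0.33 ± 0.27 (SE) on the log2 scale with an unadjusted limma p of 0.252. Robo3 was below the filter, at 0.369, 0.266, 0.247 and 1.14 FPKM in the control libraries and at 0.0378, 0.226 and 0.214 FPKM in the Med23 CKO libraries. All 3 Med23 CKO values lay below the controls, KO_214 and KO_218 only just below WT_213, and the exact permutation p was 0.143. Robo4 was at 0.360, 0.745, 1.23 and 0.388 FPKM in controls and at 0.172, 2.00 and 0.549 FPKM in Med23 CKO, with KO_214 highest. Robo3 and Robo4 lie 0.6 kb apart on chromosome 9.

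**Figure D3:**
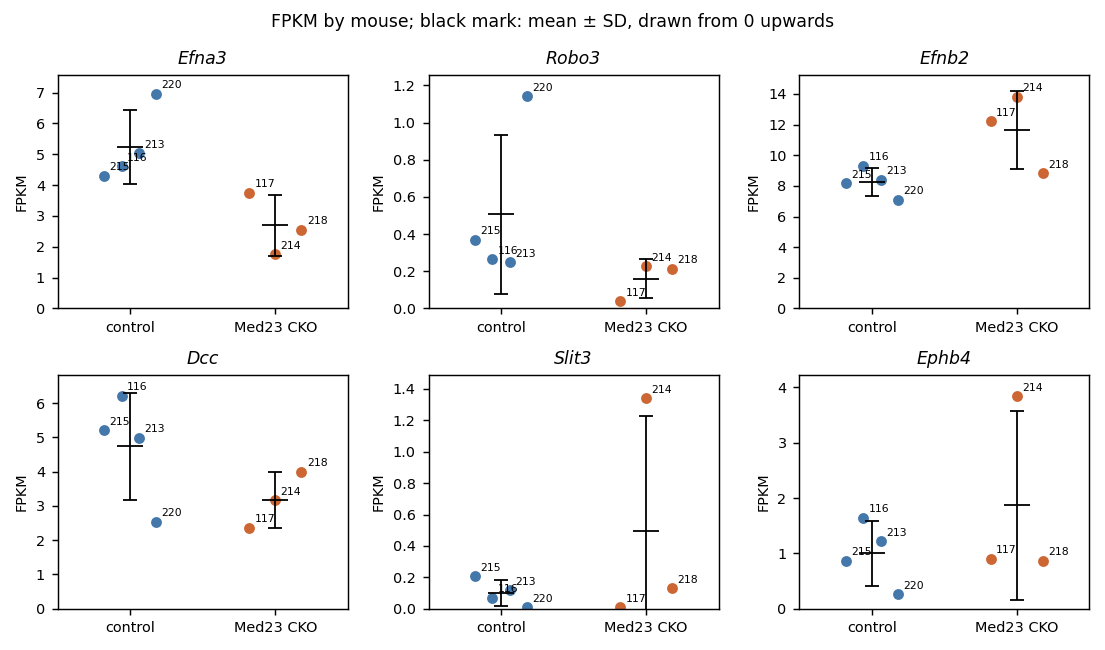
Each panel is 1 gene and each point is 1 mouse, with FPKM on the vertical axis and the mean ± SD of the 4 control and 3 Med23 CKO libraries in black. In the Efna3 and Robo3 panels all Med23 CKO points lie below the controls, in the Efnb2 and Dcc panels the groups overlap in part, and in the Slit3 and Ephb4 panels KO_214 stands alone.

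Netrins and their receptors overlapped between the groups in every tested gene. Ntn1, the secreted netrin that guides commissural axons, was at 19.6, 5.80, 11.8 and 35.7 FPKM in the control libraries and at 31.1, 9.28 and 7.08 FPKM in the Med23 CKO libraries. The 3 Med23 CKO values lay within the control range, and the difference was -0.21 ± 0.67 (SE) on the log2 scale. Ntn4, a netrin of basement membranes, ranged from 4.95 to 30.9 FPKM and Ntn3 from 1.41 to 6.09 FPKM, with differences of 0.08 and -0.25. The membrane-anchored Ntng2 was at 3.51, 5.60, 4.59 and 2.32 FPKM in controls and at 1.55, 5.33 and 2.81 FPKM in Med23 CKO, where only KO_117 left the control range. Its difference was -0.30 ± 0.37 (SE), and that of Ntng1 was -0.20 ± 0.31.

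Neo1, which encodes neogenin, was the steadiest guidance gene, its highest library 1.60 times its lowest. It was at 20.0, 19.4, 17.6 and 15.4 FPKM in controls and at 24.7, 22.7 and 17.9 FPKM in Med23 CKO. KO_117 and KO_214 lay above all controls and KO_218 among them, and the difference was 0.25 ± 0.18 (SE) on the log2 scale with an unadjusted limma p of 0.215. Dcc, the attractive netrin-1 receptor, was at 5.21, 6.22, 4.99 and 2.54 FPKM in controls and at 2.37, 3.16 and 4.00 FPKM in Med23 CKO. Its 3 Med23 CKO values were below 3 of the 4 controls but not below WT_220, and the difference was -0.43 ± 0.30 (SE). Without WT_220 it was -0.65 with an unadjusted limma p of 0.0334. The repulsive receptors Unc5a, Unc5b and Unc5c had differences of -0.22, 0.23 and -0.06, each smaller than its standard error.

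While the groups overlapped for nearly all guidance genes, the libraries differed along an order that many of these genes shared. The highest value among the 32 tested genes was in KO_214 for 10 genes, KO_117 for 8, WT_116 for 7, WT_220 for 6 and WT_215 for 1. The lowest was in KO_117 for 10, WT_220 for 7, WT_116 for 6, KO_214 for 5, KO_218 for 3 and WT_215 for 1. WT_213 held neither extreme for any gene. The mean log2(FPKM + 1) of 6 markers of dividing cells put the same libraries at its ends, at 3.75 in KO_214 and 4.89 in WT_116, then 5.68 in WT_213, 5.92 in KO_218, 6.65 in WT_215, 6.66 in WT_220 and 7.08 in KO_117. Control and Med23 CKO libraries were interspersed along this order, and the mean of 8 endothelial markers ran against it (r = -0.894 over 7 libraries, exact permutation p = 0.00417).

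**Figure D4:**
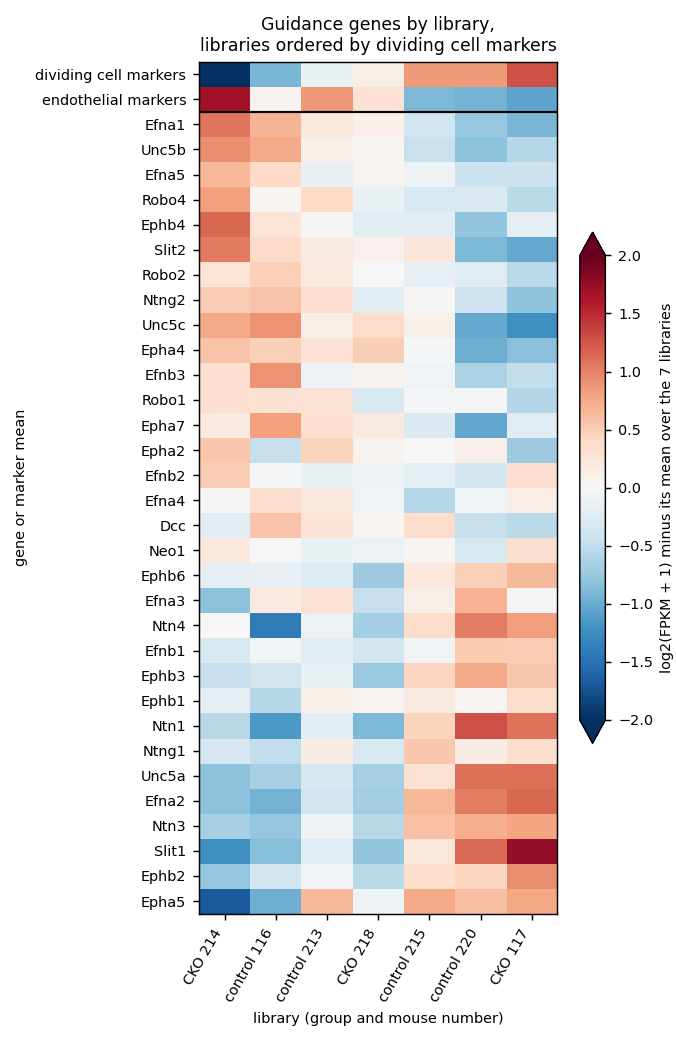
Columns are the 7 libraries in the order of the dividing cell markers, and the colour is log2(FPKM + 1) minus the gene's mean over the libraries, from -2 (blue) to 2 (red). Genes at the top, such as Efna1, Unc5b and Robo4, were highest in KO_214 or WT_116, and genes at the bottom, such as Slit1, Efna2 and Epha5, were highest in KO_117, WT_220 or WT_215.

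Pearson's correlation with the dividing cell mean over the 7 libraries was at least 0.8 in size for 15 of the 32 genes (46.9%), against 33.1% of all genes tested. It was negative for 9 genes (28.1%, all genes 18.4%), namely Efna1, Efna5, Unc5b, Unc5c, Robo2, Robo4, Ephb4, Slit2 and Ntng2. It was positive for 6 genes (18.8%, all genes 14.7%), namely Efna2, Epha5, Ephb2, Slit1, Ntn3 and Unc5a. Both sides held ligands and receptors of the same system, with Slit2, Robo2 and Robo4 on one side and Slit1 on the other, and with Unc5b and Unc5c opposite Unc5a. All 15 kept their sign within the control libraries and within the Med23 CKO libraries. They also kept it when KO_214 and KO_117, the libraries farthest from the median of the markers, were left out. The 15 were picked by r over these same libraries, so the kept signs are no independent check. The correlated values come from the same libraries and share their normalization.

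Over the 64 relations computed (32 genes with each of the 2 marker means), 3 genes had an adjusted exact permutation p under 0.05 for Pearson's r with the dividing cell markers. For Efna1, r was -0.970 (exact permutation p = 0.000198, adjusted 0.0127) and Spearman's rho was -1 (p = 0.000397, adjusted 0.0254), with r at -0.965 without the 2 farthest libraries. For Unc5b, which encodes a netrin receptor prominent in endothelium, r was -0.951 (exact permutation p = 0.000992, adjusted 0.0317), rho was -0.964 (p = 0.00278, adjusted 0.0392) and r without the 2 farthest was -0.975. With the endothelial markers, r of Unc5b was smaller in size, at 0.842 (exact permutation p = 0.0177, adjusted 0.0608). For Efna5, r was -0.946 (exact permutation p = 0.00258, adjusted 0.0413), rho was -0.893 (p = 0.0123, adjusted 0.0492) and r without the 2 farthest was -0.843. By Spearman's rho, 8 genes on the negative and 5 on the positive side had an adjusted exact permutation p under 0.05. The share of all genes that would pass these adjusted thresholds was not computed. With the same markers, 33.1% of all genes tested had an r of at least 0.8 in size. These counts can therefore not be read as particular to the guidance genes.

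On the positive side, Slit1, given above, ran from 0.411 FPKM in KO_214 to 10.3 FPKM in KO_117 (r = 0.859, exact permutation p = 0.0127, adjusted 0.0608, rho = 0.964, p = 0.00278, adjusted 0.0392, r = 0.811 without the 2 farthest). Efna2 was at 6.55, 1.48, 2.62 and 8.61 FPKM in controls and at 9.55, 1.68 and 1.94 FPKM in Med23 CKO. Unc5a was at 3.77, 1.45, 2.05 and 7.30 FPKM in controls and at 7.29, 1.2 and 1.46 FPKM in Med23 CKO. In both genes WT_215, WT_220 and KO_117 were high and the other 4 libraries low. On the opposite side, Unc5b was at 11.7, 28.4, 17.6 and 8.82 FPKM in controls and at 10.7, 32.1 and 16.7 FPKM in Med23 CKO, with the same 3 libraries low. Robo4, the endothelial Robo, followed the endothelial markers (r = 0.961, exact permutation p = 0.00159, adjusted 0.0339, rho = 0.929, p = 0.00675, adjusted 0.0392, r = 0.903 without the 2 farthest). For these markers, 10 of the 32 genes had an r of at least 0.8 in size (31.3%), against 29.8% of all genes tested, 5 positive (15.6%, all genes 16.3%) and 5 negative (15.6%, all genes 13.5%). The part of any cell type in these differences was not tested.

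**Figure D5:**
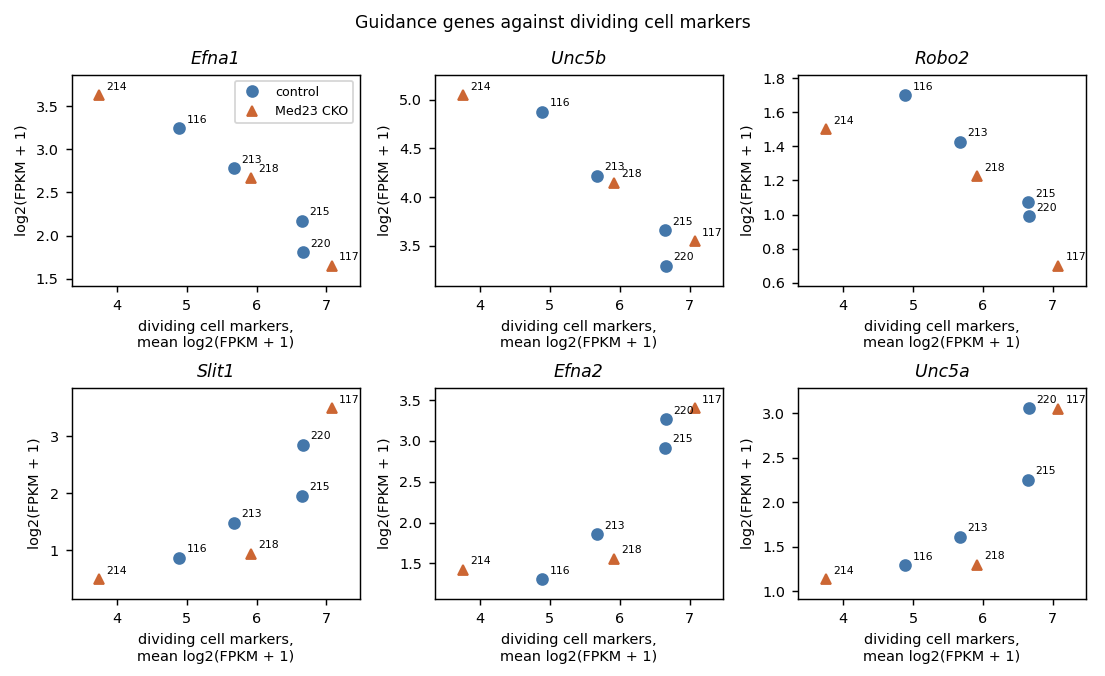
Each panel plots 1 gene's log2(FPKM + 1) against the mean log2(FPKM + 1) of the 6 dividing cell markers, with 1 point for each library. Efna1, Unc5b and Robo2 fall and Slit1, Efna2 and Unc5a climb along the axis, with control (circles) and Med23 CKO (triangles) points on the same course.

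With the dividing cell mean added to the model, an alternative chosen after the data were seen, the Efna3 difference was -0.70 ± 0.20 (SE), with an unadjusted limma p of 0.00898. Robo1 (-0.43) and Ntng2 (-0.45) then also had an unadjusted limma p under 0.05, at 0.0270 and 0.0397. All 6 dividing cell markers were lower in Med23 CKO, 0 of them at an unadjusted limma p under 0.05. The study, in contrast, reports a larger share of BrdU-labelled cells in Med23 CKO neurospheres. Whether the marker mean itself depends on genotype was not tested, so this fit does not isolate a genotype difference. For Efna3 over the 7 libraries, r with the dividing cell markers was 0.584 (exact permutation p = 0.165, adjusted 0.207, rho = 0.286, p = 0.556, adjusted 0.583, r = 0.235 without the 2 farthest). With the endothelial markers it was -0.626 (exact permutation p = 0.129, adjusted 0.177, rho = -0.357, p = 0.444, adjusted 0.482, r = -0.396 without the 2 farthest). Within the Med23 CKO libraries, Efna3 was in the order of the dividing cell markers, highest in KO_117 and lowest in KO_214. It was in the reverse order of the endothelial markers. Beyond the fit with the dividing cell mean, the part of either marker list in the Efna3 difference was not tested.

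Genes that act beside or below these receptors were taken from a list of 52 symbols, of which 51 were in the table and 50 were tested. The absent symbol, Rgmc, is another name of Hfe2, which was in the table but below the filter. In Med23 CKO 24 were higher and 26 lower, with a median difference of -0.02 on the log2 scale, and 1 had an unadjusted limma p under 0.05, beside 1.5% of all genes tested. That gene was Chn2, which encodes a chimaerin, a GTPase-activating protein for Rac of the family that acts below Eph receptors. The list was chosen with earlier results of these data known, so finding Chn2 in it is not independent of them. Chn2 was at 27.7, 14.6, 18.7 and 38.6 FPKM in the control libraries and at 6.82, 6.54 and 7.01 FPKM in the Med23 CKO libraries. Its Med23 CKO values were tightly grouped and all below the lowest control, while the controls spread widely. The difference was -1.64 ± 0.32 (SE), with an unadjusted limma p of 0.00113 and an adjusted limma p of 1. Dock1, a Rac activator that Dcc engages, also separated the groups, at 38.0, 43.7, 41.9 and 39.2 FPKM in controls and at 34.7, 35.2 and 34.0 FPKM in Med23 CKO. Its difference was -0.22 ± 0.14 (SE), with an unadjusted limma p of 0.146. The other 48 tested genes of the list, among them the Slit effectors Srgap1, Srgap2 and Srgap3, did not separate the groups. Over all genes tested 2.32% did, so both counts for the list were near the background.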

How the data were processed

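TopHat alignments to mm10 were turned by the authors into FPKM per gene with Cuffdiff, and these FPKM values were deposited for each of the 7 libraries. The table's other columns hold the authors' group means and their own comparison (fold change, test statistic, p-value and q-value) and were not used. Low FPKM values gave no whole-read steps, so depth is unknown, no counting interval is given, and the number of libraries limits the precision. Columns were matched to mice by their titles, and the labels give no batch. The study gives 3 mice in each group without naming the controls, so all 4 controls were kept.

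FPKM was analysed as log2(FPKM + 1) for genes with a mean of at least 0.5, which leaves low genes untested and shrinks their differences. Groups were compared with limma 3.58.1 (lmFit, eBayes with trend) in R 4.3.3, two-sided, with Benjamini-Hochberg adjustment over 14151 genes, after a check on simulated data. Single genes were also tested by exact two-sided permutation over 35 assignments of the libraries. Correlations used all 5040 orders of the libraries in Python 3.11.15 with numpy 2.4.6. Full values were given for genes with an unadjusted p under 0.05, genes whose groups did not overlap, and the highest gene of each family. Other genes described library by library were chosen after their values were seen. The members, the list of partner genes and the marker lists were chosen with earlier results of these data known. Positions are from GENCODE M21 and promoters from RefSeq, both on GRCm38. Dcc, Efnb3, Ntn1, Slit1 and Unc5d had no promoter entry. Alternatives were other pseudocounts, filters, scalings, limma settings and covariates, and each library left out in turn.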

Additional observations from a re-analysis of the deposited data

Results flagged for a closer look

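In 3 of the 32 tested guidance genes, 1 of the 4 control libraries stood far from the other 3 by Dixon's test on log2(FPKM + 1), which chance gives in about 1 in 20 groups. This was 9.38% of the guidance genes, against 3.60% of all genes tested. On FPKM itself, 1 of the 32 (Epha5) stood out in this way. Epha5 was at 3.16 FPKM in WT_116 and at 11.4 to 12.9 FPKM in the other controls. Ephb1 was at 2.42 FPKM in WT_116 and at 4.26 to 4.69 FPKM in the other controls. Slit2 was at 0.286 FPKM in WT_220 and at 1.71 to 2.11 FPKM in the other controls. Of the controls, WT_116 had the lowest and WT_220 the highest mean of the dividing cell markers, and the part of this in the 3 values was not tested.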

How the results depend on the processing

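Differences are log2(FPKM + 1), Med23 CKO minus control, and counts are genes with an unadjusted limma p under 0.05. Efna3 was lower under every alternative run (-0.97 to -0.58) and lost the threshold only without KO_214. With 1 library left out, 0 to 1 guidance genes were higher and 1 to 2 lower. Efnb2 became the 1 higher gene with no filter (0.43), quantile normalization (0.45), median centring (0.46) or without KO_218 (0.60). The lower genes gained Ephb3 (-0.71, 2 genes in all) with array weights, Dcc without WT_220, Ephb2 (-0.74) without KO_117, and Robo1 (-0.60, in place of Efna3) without KO_214. The array weight was 3.01 for KO_218, 0.301 for KO_117 and 0.441 for KO_214. Results with array weights therefore rest mainly on KO_218 for the Med23 CKO group. With the dividing cell markers as a covariate 3 were lower. Over all genes, 71 were higher and 141 lower. These counts were 195 and 273 with no filter, 193 and 887 with array weights, 172 and 335 with the covariate, 45 to 354 and 70 to 410 with 1 library left out (extremes without WT_215, KO_117 and KO_218), 102 and 123 under quantile normalization, and 99 and 119 under median centring. At adjusted p, 0 to 1 gene passed with 1 library left out (1 without KO_214 and 1 without KO_218). Among partner genes, 0 to 1 were higher (1 without KO_117) and 1 to 3 lower (3 without KO_214) with 1 library left out, and 2 were lower with no filter, 5 with array weights and 2 with the covariate.

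Signs turned for several small differences. With the covariate they were Efna1 -0.087, Efna2 0.048, Epha4 -0.034, Epha7 -0.030, Ntn1 0.028, Robo4 -0.046, Slit1 0.17, Slit2 -0.15 and Unc5a 0.0065. With array weights, which rest mainly on KO_218 for Med23 CKO, they were Efna4 -0.0064, Efnb3 0.058, Ntn4 -0.43, Robo4 -0.088 and Unc5c 0.17. Epha2 was 0.028 under quantile normalization and 0.012 with a covariate for the leading digit of the mouse number, and Slit2 was -0.086 with a pseudocount of 0.1. The cause was not tested. With 1 library left out the ranges that crossed 0 were Efna1 -0.34 to 0.65, Efna2 -0.85 to 0.14, Efna4 -0.14 to 0.17, Efna5 -0.11 to 0.43, Efnb1 -0.39 to 0.052, Efnb3 -0.27 to 0.25, Epha2 -0.35 to 0.29, Epha4 -0.17 to 0.58, Epha5 -1.15 to 0.078, Epha7 -0.24 to 0.38, Ephb1 -0.033 to 0.26, Ephb2 -0.74 to 0.11, Ephb4 -0.032 to 0.65, Ephb6 -0.52 to 0.17, Ntn1 -0.81 to 0.19, Ntn3 -0.71 to 0.0063, Ntn4 -0.38 to 0.44, Ntng2 -0.64 to 0.019, Robo2 -0.34 to 0.065, Robo4 -0.29 to 0.39, Slit1 -1.07 to 0.43, Slit2 -0.44 to 0.59, Unc5a -0.83 to 0.12, Unc5b -0.17 to 0.58, Unc5c -0.45 to 0.54. No paired analysis was possible because the groups share no mouse number.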
